A study of Mus musculus with 11 samples.

Results

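MicroRNA genes gave 706 of the 20810 genes to which the authors had assigned regions of open chromatin in mouse haematopoietic stem cells (HSCs). The members are all 2842 of 94410 peaks whose nearest gene has a symbol made of Mir and a number, or of Mirlet7. Each gene had between 1 and 37 of these peaks (median 3), and 204 genes had a single one. Open chromatin was mapped by ATAC-seq: a transposase cuts and tags DNA that is not wrapped up, so that peaks mark regulatory DNA in use or ready for use.

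HSCs were purified from the bone marrow of unperturbed mice of the genotype Gfplc3/Gfplc3, a GFP-LC3 reporter that all groups carried. LC3 coats autophagosomes, and GFP is lost while autophagy degrades it. The 5 young libraries came from unfractionated HSCs. The 3 old pairs were split by GFP into a library of AThi HSCs, with low GFP and engaging autophagy, and a library of ATlo HSCs, with high GFP. Ages in numbers, sex, the number of animals behind a library and the isolation day of each sample (2 days in all) are not stated in the sources used here. The p-values therefore describe the spread between these 11 libraries alone, which may be partly technical. Young HSCs were not split by GFP, so age and fractionation cannot be told apart in a comparison with young. Both such comparisons share the 5 young libraries, and their old libraries are fractions of the same 3 old pairs, so they are not independent.

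MicroRNAs are short RNAs that silence messenger RNAs. A long primary transcript is cut in the nucleus by Drosha and Dgcr8 into a hairpin, which Dicer1 trims to the mature strand that is loaded into an Argonaute protein. The strand finds its targets mainly through its seed, the bases near its 5′ end. In blood, microRNAs such as miR-125b and miR-99 are known for their effect on HSC self-renewal, miR-21 and miR-142 for myeloid and inflammatory functions, miR-181 and miR-150 for lymphocytes, and let-7 for the switch from fetal to adult HSCs, where Lin28b holds it down.

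The sequences below are those of microRNAs with called peaks, together with miR-99b and miR-10a, which had none and share a seed with called ones. They are mature strands, 5′ to 3′, from RefSeq (build GRCm38.p6), with bases 2 to 8, the seed, in capitals. The miR-99 and miR-100 strands, the miR-10 pair, the miR-29 strands and the let-7 strands share a seed within each family, so their loci can be set side by side. RefSeq gave a mature sequence for 625 of the 706 genes.
miR-125b-5p: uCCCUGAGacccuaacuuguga
miR-99a-5p: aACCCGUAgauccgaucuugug
miR-100-5p: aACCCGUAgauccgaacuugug
miR-99b-5p: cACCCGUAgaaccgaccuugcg
miR-10b-5p: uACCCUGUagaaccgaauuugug
miR-10a-5p: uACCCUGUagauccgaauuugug
miR-29a-3p: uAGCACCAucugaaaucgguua
miR-29b-3p: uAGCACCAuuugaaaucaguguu
let-7i-5p: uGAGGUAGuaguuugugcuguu
let-7a-5p: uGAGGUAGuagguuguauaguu
let-7f-5p: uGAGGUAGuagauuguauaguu
miR-128-3p: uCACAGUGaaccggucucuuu
miR-21a-5p: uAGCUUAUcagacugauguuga
miR-142a-3p: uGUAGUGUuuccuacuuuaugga
miR-181a-5p: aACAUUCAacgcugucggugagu
miR-107-3p: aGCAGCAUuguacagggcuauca
miR-139-5p: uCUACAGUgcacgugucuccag

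The start of most microRNA genes in the authors' tables is the first base of the hairpin (median gene length 79 bp), while the promoter of the primary transcript can lie far away. For 9 host genes (47 peaks), named after the microRNAs they carry, it is the start of the longer host transcript. MicroRNA peaks lay farther from the annotated start than peaks at large, with a median of 22.4 kb against 16.7 kb, and 7.04% against 19.2% of them lay within 1 kb of it. More lay in introns (41.9% against 33.6%) and about as many in distal intergenic DNA (36.0% against 35.7%). Almost all exon and intron peaks belonged to another gene's transcript: 1340 microRNA peaks (47.1%) lay in a transcript of 394 other genes. Widths had a median of 511.5 bp (all peaks 547), and the median of the authors' mean normalised count was 23.7 (all peaks 27.5). Among the members, 36 peaks of 5 repeat-like microRNA genes, such as Mir684-1 and Mir706, were assigned on a chromosome other than that of the gene's RefSeq entry. Their gene names are therefore uncertain.

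All values that follow come from the authors' deposited tables: a log2 fold change per peak with its standard error (SE) from 1 DESeq2 fit, and a p-value adjusted by Benjamini and Hochberg's method over the peaks tested (92579 of 94410 against young). A peak is called at an adjusted p under 0.05. Group levels are approximate mean normalised counts, computed here from the authors' mean over 11 libraries and the log2 changes. They carry no error of their own, and values per library were not analysed here. In bulk HSCs a change per cell and a change in the mix of cells cannot be told apart. As a check of the label, a promoter peak was found for 10 of 10 HSC markers (mean normalised count 28.6 to 414), of which 2 were called higher and 1 lower in AThi and 2 higher and 3 lower in ATlo HSCs. It was found for 2 of 5 B cell, 1 of 5 T cell, 1 of 5 myeloid, 3 of 5 erythroid and 4 of 5 stromal or endothelial markers, with Cdh5, Elane, Hba-a1, Cd79a and Cd3e among those without one. Those found for erythroid (74.7 to 229) and stromal or endothelial markers (28.2 to 214) lay within the range of the HSC markers, and those for B cell, T cell and myeloid markers between 13.7 and 56.0. Of these other markers' promoters 1, a stromal or endothelial one, was called, as higher in both old groups. The part of other cells in the results was not tested.

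Old AThi HSCs differed from young HSCs at 281 of the 2780 microRNA peaks with an adjusted p (10.1%), close to the 10.3% of all tested peaks. Higher calls numbered 220 (7.91%, against 7.57% of all peaks) and lower calls 61 (2.19%, against 2.74%). The higher calls spread over 170 microRNA genes and the lower calls over 55, with 14 genes having both. Their median log2 change was 1.28 for higher and -1.15 for lower calls, against 1.21 and -0.85 over all called peaks. A 2-fold size or more was reached by 157 of the higher and 35 of the lower calls. Among all peaks, 4616 of 7004 higher and 1025 of 2539 lower calls reached it. Over all members, called or not, the median log2 change was -0.04, as over all peaks (-0.04).

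In old ATlo HSCs 241 microRNA peaks (8.67%) were called against young, where 9.42% of all peaks were. There were 188 higher calls (6.76%, all peaks 6.88%) at 138 genes and 53 lower calls (1.91%, all peaks 2.54%) at 47 genes. The median log2 change was 1.27 for higher and -0.999 for lower calls, against 1.199 and -0.609 over all called peaks. A 2-fold size or more was reached by 134 of the higher and 26 of the lower calls. Among all peaks, 4154 of 6370 higher and 530 of 2351 lower calls reached it. The share of calls that were higher was 78.3% for AThi and 78.0% for ATlo HSCs, against 73.4% and 73.0% over all peaks. Those shares rest on the authors' scaling. Centring on the 1811 strongest promoters (median log2 change -0.22 for AThi and -0.31 for ATlo, set to 0) gave 92.5% and 96.3% higher calls. As shares of tested peaks, higher and lower calls were then 13.7% and 1.12% for AThi (all peaks 13.6% and 0.87%). For ATlo they were 17.9% and 0.68% (all peaks 17.3% and 0.32%).

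**Figure D1:**
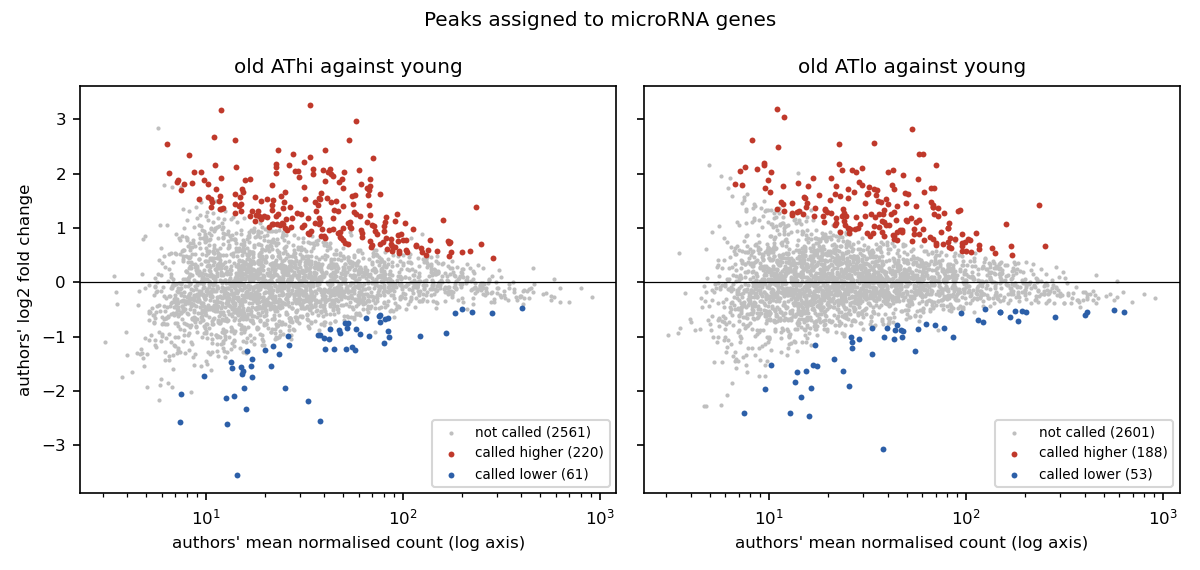
Each point is 1 of the 2842 peaks assigned to microRNA genes, with the authors' mean normalised count on a log axis and the authors' log2 fold change of old AThi (left) or old ATlo HSCs (right) against young. Red points are called higher (220 and 188), blue points lower (61 and 53), and grey points are not called or have no adjusted p; most called points lie above 0.

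By position, microRNA peaks within 1 kb of the annotated start were called higher in AThi HSCs in 21 of 197 cases (10.7%, against 7.36% of all peaks of that class) and lower in 4 (2.03%, against 4.62%). In ATlo HSCs the same class had 11 higher calls (5.58%, all peaks 5.77%) and 6 lower calls (3.05%, all peaks 6.90%). These shares describe counts, and their differences were not tested. The starts of all peaks are mostly promoters of other genes. Those of microRNA genes are mostly hairpins, with starts of host transcripts such as Mir22hg among them. Intronic microRNA peaks were called in 9.32% (AThi) and 8.64% (ATlo) of cases, near the 9.63% and 8.41% of all intronic peaks. By distance, the share called in AThi HSCs was 11.4% under 10 kb from the start (all peaks 10.6%), 8.55% from 10 to 100 kb (9.48%) and 12.6% farther out (12.9%). In ATlo HSCs these shares were 9.13% (10.2%), 7.79% (8.23%) and 10.6% (12%).

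**Figure D2:**
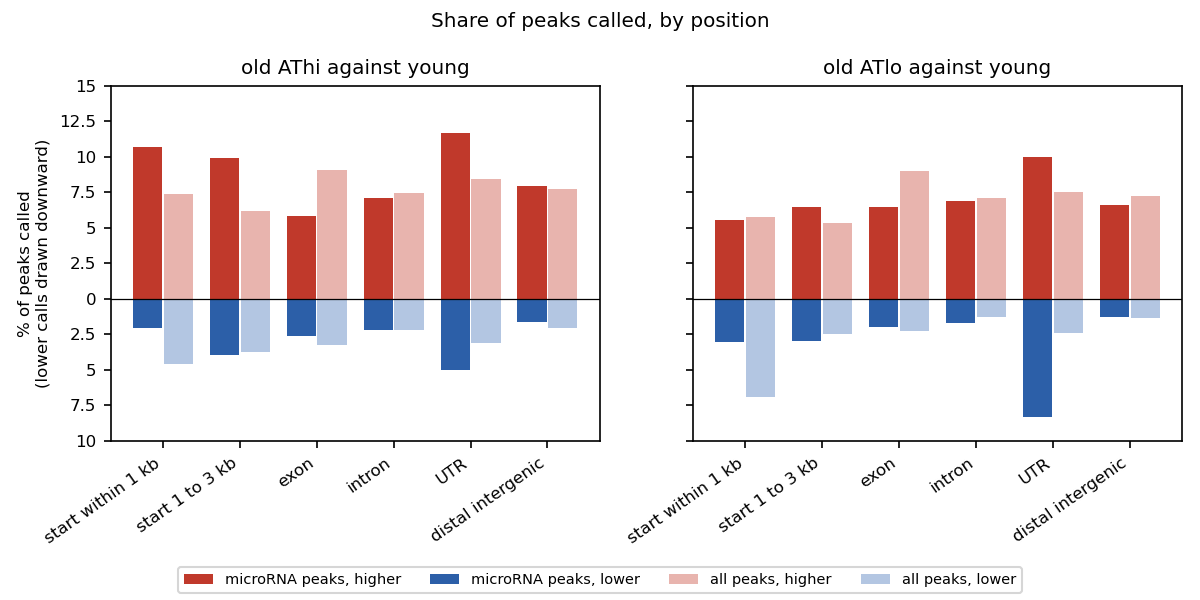
Bars give the percentage of tested peaks called higher (upward, red) or lower (downward, blue) in old AThi (left) and old ATlo HSCs (right) against young, for microRNA peaks (dark) and all peaks (pale) by position class. Within 1 kb of a start the dark downward bars are shorter than the pale ones (2.03% against 4.62%, and 3.05% against 6.90%); the UTR bars rest on 60 microRNA peaks.

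Among regulators of HSCs and progenitors, peaks assigned to Mir125b-2, Mir99a, Mir10b, Mir29a and Mir29b-1 rose in old HSCs, most of them 30 kb or more from the hairpin, while the nearest Mir29b-1 peak fell in AThi HSCs. Of 27 microRNAs on this list 17 had a peak, and of 59 tested peaks 7 were higher and 2 lower in AThi HSCs (15.3% called). In ATlo HSCs 6 were higher and 1 lower (11.9%). Over all peaks 10.3% and 9.42% were called. The list's median log2 change was 0.09 for AThi and 0.10 for ATlo HSCs, against -0.04 and -0.03 over all peaks. Mir126a, Mir125a, Mirlet7e and Mir22 were among the 10 listed genes with no peak of their own.

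The largest increase among all microRNA peaks of AThi HSCs lay 58.4 kb downstream of the start of Mir125b-2, at chr16:77501544-77502072 in intergenic DNA. The computed level was 7.23 in young, 69.7 in old AThi and 42.5 in old ATlo HSCs. That is a 9.64-fold rise in AThi HSCs (log2 3.27, SE 0.35, adjusted p = 2.53e-17, DESeq2) and a 5.88-fold rise in ATlo HSCs (log2 2.56, SE 0.36, adjusted p = 4.49e-10), as the authors' deposited tables give it. A second peak 73.1 kb downstream rose in ATlo HSCs alone by the threshold (log2 1.35, SE 0.47, adjusted p = 0.0493; AThi 0.64, SE 0.52, adjusted p = 0.511). That call does not hold when p-values are adjusted over every peak (adjusted p = 0.0502). The peak closest to the hairpin, 1.53 kb upstream, lay at 82.4, 87.4 and 88.1 in young, AThi and ATlo HSCs and was not called (log2 0.09, SE 0.22, and 0.10, SE 0.22).

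Mir99a, whose strand differs in seed from miR-125b but whose hairpin lies in the same cluster, had its nearest peak 30.1 kb upstream, at chr16:77365057-77365757. It rose from 14.2 in young to 47.9 in AThi (log2 1.75, SE 0.31, adjusted p = 1.56e-06) and 44.4 in ATlo HSCs (log2 1.64, SE 0.31) in the authors' deposited tables. The start of Mir99ahg, the host transcript of this cluster, lay at 97.5, 95.5 and 97.5 in the 3 groups (log2 -0.03, SE 0.22, adjusted p = 0.96 for AThi). None of the 10 Mir99ahg peaks was called in either comparison, 8 of them having an adjusted p. Over all peaks 10.3% and 9.42% were called, so a count of 0 among so few says little. The higher peaks named for this cluster lay away from the annotated host start.

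A like picture held at the cluster of Mir100 and Mir125b-1, hosted by Mir100hg. The peaks over the 2 starts of Mir100hg were not called (log2 0.09, SE 0.35, and -0.12, SE 0.27, for AThi). A Mir100hg intron peak 4.94 kb past a start, at chr9:41391129-41391750, rose from 11.7 to 48.4 in AThi (log2 2.05, SE 0.33, adjusted p = 3.35e-08) and to 40.5 in ATlo HSCs (log2 1.80, SE 0.33). The authors' deposited tables also gave a rise at a weak peak 19.0 kb upstream of Mir100 in AThi HSCs (log2 1.72, SE 0.54, adjusted p = 0.0185), which did not pass in ATlo HSCs (log2 1.07, SE 0.55). The nearest peaks of Mir100 and Mir125b-1 were not called. Mir99b, the third gene with the miR-99 seed, had a strong nearest peak at 336, 300 and 335 that was not called (log2 -0.16, SE 0.13, and -0.0046, SE 0.13).

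The miR-10 pair shares its seed and lies in the Hox clusters, and a peak of 1 of its genes was called. Near Mir10b, in the HoxD cluster, the peak at chr2:74557414-74558157, 1.00 kb downstream of the start, rose from 28.0 in young to 74.0 in AThi and 62.1 in ATlo HSCs (log2 1.40, SE 0.25, and 1.15, SE 0.25). The nearest Mir10a peak, in the HoxB cluster, did not pass in either (0.27, SE 0.20, and -0.10, SE 0.21, in the authors' deposited tables). The difference between the genes was not tested. Mir196b of the HoxA cluster was not called either (log2 -0.33, SE 0.24, for AThi).

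At the miR-29a and miR-29b-1 locus, peaks moved in both directions. A peak 37.7 kb downstream of Mir29a, at chr6:31001321-31001958, rose from 11.1 to 45.8 in AThi (log2 2.04, SE 0.34) and 39.9 in ATlo HSCs (log2 1.84, SE 0.34). On the other side, a peak 33.1 kb upstream of Mir29b-1 in intron 3 of Lncpint rose by log2 1.11 (SE 0.20) and 0.99 (SE 0.20) in the authors' deposited tables. The peak 8.97 kb upstream of Mir29b-1 fell in AThi HSCs, from 52.4 to 25.5 (log2 -1.04, SE 0.29, adjusted p = 0.00569), while in ATlo HSCs it lay at 42.9 and did not pass (log2 -0.29, SE 0.25). Tested directly between the old fractions, that peak differed by -0.75 (SE 0.32, unadjusted p = 0.0185 by DESeq2), with an adjusted p of 0.999998.

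Mir33 lies in an intron of Srebf2, the regulator of cholesterol synthesis, and its peaks had changes in both directions. The peak over the hairpin, at 367, 342 and 321, was not called (log2 -0.10, SE 0.15, and -0.19, SE 0.15). A peak 1.33 kb upstream fell from 53.7 to 26.5 in AThi and 30.2 in ATlo HSCs (log2 -1.02, SE 0.29, and -0.83, SE 0.27), the ATlo call ending with changes centred on strong promoters (adjusted p = 0.182). One in intron 9 of Srebf2, 16.3 kb upstream, rose in AThi HSCs (log2 0.66, SE 0.21, adjusted p = 0.0256) and did not pass in ATlo HSCs (0.50, SE 0.21). Nearest peaks of Mir212, Mir130a, Mir34a, Mir29c, Mir221 and Mir222 were not called; the Mir221 peak, at a mean normalised count of 5.50, had no adjusted p.

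In the list of inflammatory and myeloid microRNAs, peaks of Mir21a and Mir511 were called higher and peaks of Mir142 lower. The list had 13 genes, 7 with a peak, and of 26 peaks 4 were higher and 1 lower in AThi (19.2%) and 4 higher and 2 lower in ATlo HSCs (23.1%), against 10.3% and 9.42% of all peaks. Mir21a, whose product rises in many inflamed and transformed tissues, had its nearest peak at chr11:86472768-86473881. It rose from 124 in young to 326 in AThi and 330 in ATlo HSCs (log2 1.39, SE 0.20, adjusted p = 1.27e-09, and 1.41, SE 0.20, adjusted p = 8.32e-10). The peak beside it, 2.39 kb from the start, rose less (0.73, SE 0.17, and 0.50, SE 0.17) in the authors' deposited tables.

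Mir511 lies in Mrc1, which encodes the mannose receptor of macrophages. Its nearest peak rose from 12.5 to 34.5 and 36.6 (log2 1.47, SE 0.36, and 1.55, SE 0.35), and a peak in intron 21 of Mrc1 rose from 44.7 to 86.1 and 104 (0.95, SE 0.23, and 1.22, SE 0.22). Mir142, which is made throughout the blood system, had 2 peaks that fell. That 1.10 kb upstream fell by 0.56 (SE 0.19, adjusted p = 0.0359) in AThi and by 0.70 (SE 0.19, adjusted p = 0.00451) in ATlo HSCs. The one 6.94 kb upstream fell by 0.55 (SE 0.15) in ATlo HSCs and did not pass in AThi HSCs (-0.39, SE 0.15, adjusted p = 0.0878). The Mir142 peak nearest to the start, 0.059 kb upstream, was not called in AThi (-0.58, SE 0.27, adjusted p = 0.155) or ATlo HSCs (-0.71, SE 0.26, adjusted p = 0.0617). All 3 Mir142 calls ended when changes were centred on strong promoters. The adjusted p was then 0.266 and 0.144 for the peak at 1.10 kb, and 0.318 for that at 6.94 kb in ATlo HSCs.

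Other immune regulators on this list did not pass. The peak over the Mir155 hairpin lay at 25.5, 23.1 and 30.7 (log2 -0.15, SE 0.35, and 0.27, SE 0.32), and the start of its host Mir155hg was not called. Nearest peaks of Mir146b (0.45, SE 0.27, and 0.39, SE 0.26), Mir23a and Mir147 were not called. Mir146a and Mir223, a brake on NF-κB signalling and a granulocyte microRNA, had no assigned peak. The start of Mir22hg, host of miR-22, was strong at 740, 577 and 506 and fell in ATlo HSCs (log2 -0.55, SE 0.16, adjusted p = 0.0102) without passing in AThi HSCs (-0.36, SE 0.16) in the authors' deposited tables. Centring on strong promoters ended that call (adjusted p = 0.347).

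**Figure D3:**
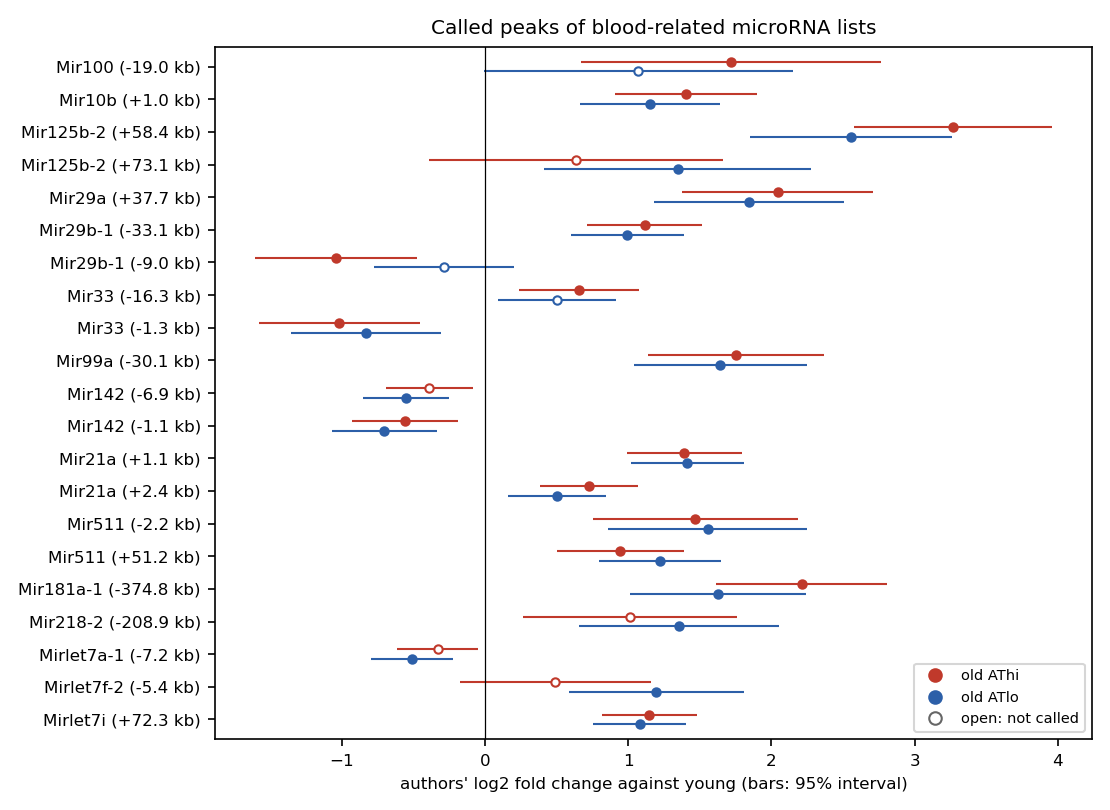
The 21 called peaks of the HSC, inflammatory, lymphoid, erythroid and let-7 lists, each with its signed distance from the annotated start; points are the authors' log2 fold changes of old AThi (red) and old ATlo HSCs (blue) against young, bars 95% intervals, and open points are not called. The Mir125b-2 peak at 58.4 kb lies farthest right (3.27 and 2.56), and the Mir29b-1, Mir33, Mir142 and Mirlet7a-1 peaks left of 0 are the lower ones.

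Lymphoid microRNAs showed 1 called peak among 33 (3.03% in each comparison, against 10.3% and 9.42% of all peaks). It lay 374.8 kb upstream of Mir181a-1, at chr1:137518947-137519407, and rose from 12.3 to 56.9 in AThi (log2 2.21, SE 0.31, adjusted p = 9.90e-11) and 38 in ATlo HSCs (log2 1.63, SE 0.31). At that distance the assigned gene is only the nearest one annotated. The peak over Mir150, a regulator of B cell formation, lay at 145, 136 and 139 (log2 -0.10, SE 0.18, and -0.06, SE 0.17). The nearest peak of Mir17, first gene of the miR-17 to miR-92 cluster, lay at 188, 197 and 194 (0.07, SE 0.17, and 0.05, SE 0.16).

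Erythroid and megakaryocyte microRNAs had 19 tested peaks, none called in AThi HSCs and 1 in ATlo HSCs (5.26%). The shares over all peaks were 10.3% and 9.42%. Beside the 0 in AThi HSCs, the nearest Mir144 peak had a log2 change of -0.21 (SE 0.26). The called peak lay in intron 4 of Slit3, 208.9 kb upstream of Mir218-2 (ATlo 1.36, SE 0.36, adjusted p = 0.00382; AThi 1.01, SE 0.38, adjusted p = 0.0662). Mir451a and Mir486, abundant in red cells, had no assigned peak.

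The let-7 genes, 5 of 11 with a peak, gave 1 higher call of 22 in AThi HSCs (4.55%, all peaks 10.3%). In ATlo HSCs 2 were higher and 1 lower (13.6%, all peaks 9.42%). The Mirlet7i peak in intron 8 of Ppm1h, 72.3 kb from the hairpin at chr10:122748528-122749360, rose from 98.0 to 217 and 207 (log2 1.15, SE 0.17, adjusted p = 1.26e-09, and 1.08, SE 0.17). The peak over the let-7i hairpin itself lay at 221, 230 and 234 (log2 0.06, SE 0.17, and 0.08, SE 0.17). Near Mirlet7f-2, in exon 52 of Huwe1 on the X chromosome, a peak rose in ATlo HSCs (log2 1.20, SE 0.31, adjusted p = 0.00351) and did not pass in AThi HSCs (0.49, SE 0.34). A strong peak 7.23 kb upstream of Mirlet7a-1, at 653, 519 and 459, fell in ATlo HSCs (log2 -0.51, SE 0.15, adjusted p = 0.00901; AThi -0.33, SE 0.15). With changes centred on strong promoters this call ended (adjusted p = 0.402). The single let-7 call in AThi HSCs thus lay in another gene's intron, and the peak over that hairpin did not pass.

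Over these 5 lists 159 peaks were tested, and 10.1% were called in AThi and 11.3% in ATlo HSCs, against 10.3% and 9.42% of all peaks. Of the 38 peaks nearest to the starts, 5 were called in each comparison. These were Mir10b, Mir99a, Mir21a and Mir511 in both, Mir29b-1 as lower in AThi HSCs and Mirlet7f-2 as higher in ATlo HSCs.

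**Figure D4:**
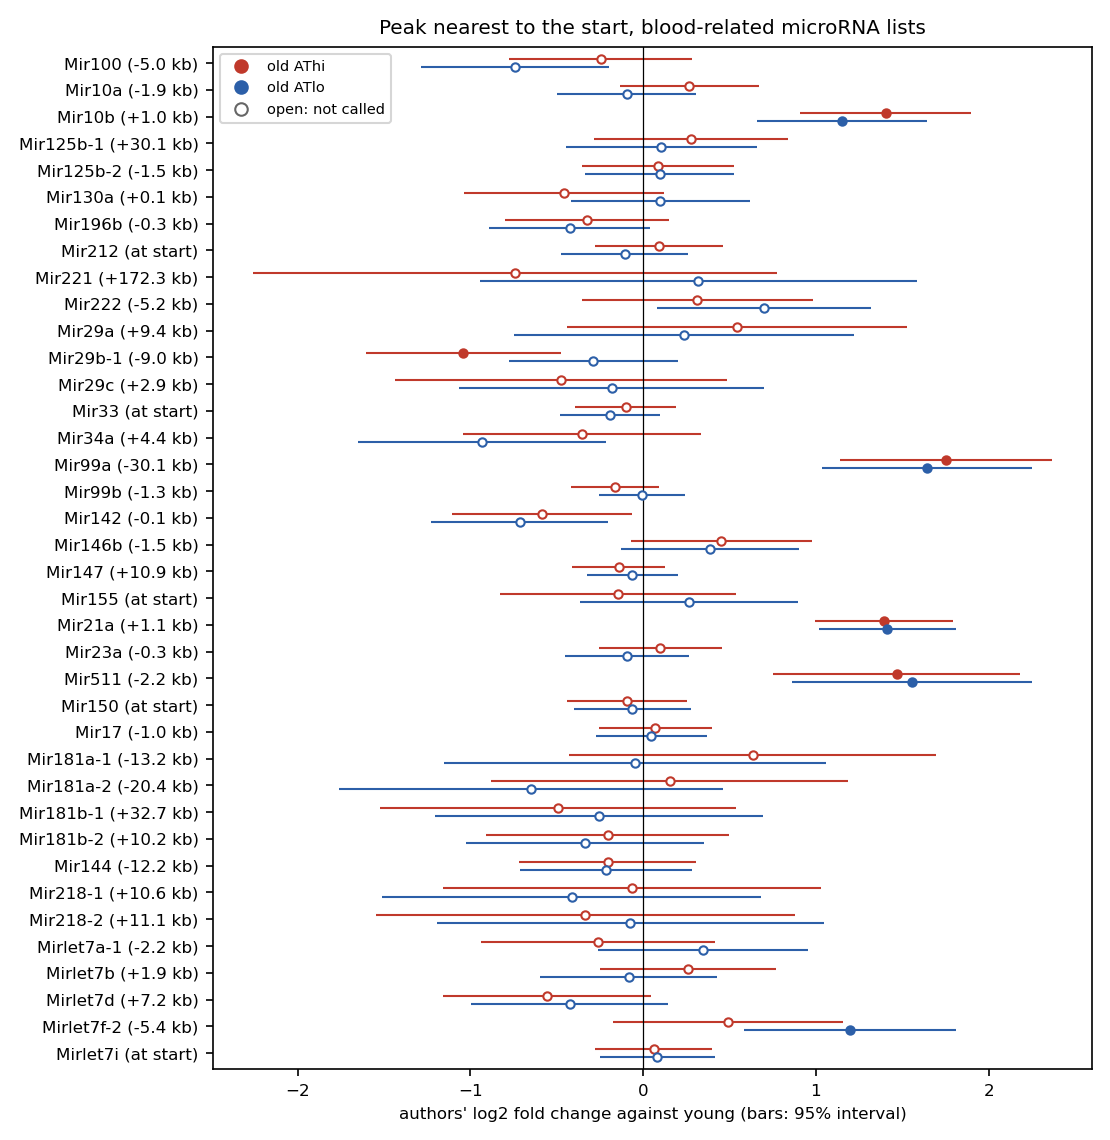
The peak nearest to the annotated start of each of the 38 microRNA genes on the HSC, inflammatory, lymphoid, erythroid and let-7 lists that had one; points are the authors' log2 fold changes of old AThi (red) and old ATlo HSCs (blue) against young, bars 95% intervals, and open points are not called. Filled points, 5 in each colour, are few, and the intervals of Mir150, Mir17, Mir33 and Mirlet7i are narrow around 0.

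MicroRNAs known from other tissues were included as a contrast. Neural microRNAs had 5 higher calls among 17 peaks in each comparison (29.4%) and no lower call. Muscle microRNAs had 3 higher among 15 (20.0%) in each. These muscle calls came from 2 genes in AThi HSCs and from 1 gene, Mir1a-2, in ATlo HSCs. Epithelial, liver and endocrine microRNAs had 2 in AThi and 1 in ATlo HSCs among 16, and pluripotency microRNAs none among 2. Over all peaks 7.57% were called higher in AThi and 6.88% in ATlo HSCs. These lists are small, each call is a peak and not a transcript, and some lie far from the hairpin, such as that of Mir137 at 244 kb.

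The smallest adjusted p of all microRNA peaks belonged to a neural one. In intron 13 of Arpp21, which hosts Mir128-2, the peak at chr9:111960884-111961097 rose from 14.5 in young to 113 in AThi (7.78-fold, log2 2.96, SE 0.29, adjusted p = 5.02e-21) and 74.8 in ATlo HSCs (log2 2.36, SE 0.29, adjusted p = 7.29e-13). It lies 13.1 kb upstream of the hairpin. The difference between the fractions was 0.60 (SE 0.29, unadjusted p = 0.0366, adjusted p = 0.999998). The peak just upstream of Mir124a-3, of the miR-124 family that marks neurons, rose from 26.9 to 94.4 and 85.3 (log2 1.81, SE 0.27, and 1.66, SE 0.27). A peak 2.78 kb upstream of Mir124-2hg rose from 74.9 to 148 and 140 (0.99, SE 0.18, and 0.91, SE 0.18), while the nearest peak of Mir124a-1 was not called (log2 0.67, SE 0.37, adjusted p = 0.269).

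Near Mir9-3, the peak just upstream of the hairpin rose in AThi HSCs (log2 1.36, SE 0.32, adjusted p = 0.000578) and did not pass in ATlo HSCs (0.76, SE 0.33). A peak 20.0 kb from the start of Mir9-3hg rose in both (1.69, SE 0.23, and 1.42, SE 0.23). A distal peak of Mir137 rose from 3.46 to 15.5 and 19.4 (2.17, SE 0.58, and 2.48, SE 0.56), at low counts. Among muscle microRNAs a UTR peak 28.5 kb from Mir1a-2 rose by 2.06 (SE 0.30) and 1.54 (SE 0.31), and among epithelial ones the peak over the Mir203 hairpin rose in AThi HSCs, from 138 to 231 (log2 0.74, SE 0.19, adjusted p = 0.00186), and lay at 179 in ATlo HSCs (0.37, SE 0.19, adjusted p = 0.222).

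Outside the lists, the higher peaks with the smallest p lay near or in host genes of several microRNAs. In intron 10 of Wwp2, a ubiquitin ligase gene that hosts Mir140, the peak at chr8:108271341-108271870 rose from 15.4 to 65.6 and 64.8 (log2 2.09, SE 0.28, and 2.07, SE 0.28). The peak 2.75 kb downstream of Mir378a, which lies in Ppargc1b, a coactivator of mitochondrial genes, rose from 32.4 to 111 and 84.2 (1.78, SE 0.23, and 1.38, SE 0.23). A distal peak of Mir101b rose by 2.03 (SE 0.26) and 1.62 (SE 0.26), and a UTR peak assigned to Mir7009, which RefSeq places inside Anxa5, by 2.28 (SE 0.25) and 2.16 (SE 0.25). At Mir7018, inside the perlecan gene Hspg2, the peak 1.87 kb downstream rose by 1.89 (SE 0.22) and 1.74 (SE 0.21). Peaks assigned to Mir7232, at 157 kb, and Mir684-1 rose by 2.61 (SE 0.31) and 1.84 (SE 0.28) in AThi and by 2.82 (SE 0.31) and 1.97 (SE 0.27) in ATlo HSCs. Mir684-1 is among the repeat-like genes above whose names are uncertain. In exon 24 of Uggt1, a peak assigned to Mir6897 rose by 1.30 (SE 0.24) in AThi and 1.90 (SE 0.22) in ATlo HSCs (between fractions -0.60, SE 0.24, unadjusted p = 0.0129), all in the authors' deposited tables.

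Lower peaks outside the lists also lay mostly in host or neighbouring genes. Mir107, of the family of miR-103, lies in Pank1, which encodes a kinase of coenzyme A synthesis. A peak in intron 1 of Pank1 at chr19:34822047-34822716 fell from 215 to 113 in AThi (log2 -0.94, SE 0.17, adjusted p = 1.95e-06) and 139 in ATlo HSCs (-0.63, SE 0.16, adjusted p = 0.00201). The ATlo call ended with changes centred on strong promoters (adjusted p = 0.158). Mir139 lies in Pde2a, a phosphodiesterase gene. Its peaks in exon 14 and exon 18 of Pde2a fell from 80.4 to 35.1 and 33.6 (log2 -1.20, SE 0.27, and -1.26, SE 0.27) and from 36.2 to 14.5 and 11.7 (-1.32, SE 0.38, and -1.63, SE 0.38).

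The largest decrease among microRNA peaks in AThi HSCs lay in intron 2 of Itpr3, a calcium channel gene, assigned to Mir7677. It fell from 26.7 to 2.29 in AThi (log2 -3.54, SE 0.73, adjusted p = 5.04e-05) and 6.22 in ATlo HSCs (-2.10, SE 0.49). The exon 57 peak of Itpr1, another such channel, assigned to Mir7661, fell from 28.6 to 5.65 and 5.18 (-2.34, SE 0.55, and -2.47, SE 0.53). In intron 12 of Csmd1, a peak assigned to Mir3106 lay at 71.3, 12.1 and 8.53. Lower calls in both comparisons also included Mir6907 (-2.18, SE 0.37, and -1.33, SE 0.31), Mir3074-2 (-1.93, SE 0.42, and -1.91, SE 0.39), a peak in intron 2 of Zmiz1 assigned to Mir3075 (-0.99, SE 0.19, and -0.73, SE 0.18) and one in Alpk2 assigned to Mir122b (-2.61, SE 0.61, and -2.40, SE 0.54). Centring ended the ATlo call of Mir3075 (adjusted p = 0.0840). Mir760 (-1.23, SE 0.27) and Mir7057 (-1.12, SE 0.22) were called in AThi HSCs and did not pass in ATlo HSCs (-0.65, SE 0.23, and -0.44, SE 0.19).

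Peaks directly over a hairpin were few. There were 89, at 89 genes, and their median level was 92.8. Of 88 tested, 8 were higher and 3 lower in AThi HSCs (12.5%), and 5 higher and 4 lower in ATlo HSCs (10.2%), near the 10.3% and 9.42% of all peaks. The largest rises were at Mir7094-2, from 20.1 to 84.5 and 103 (log2 2.07, SE 0.29, and 2.36, SE 0.28), and at Mir7094-1, from 29.2 to 97.0 and 96.8 (1.73, SE 0.26, and 1.73, SE 0.26). Both genes encode the same 3′ strand, and near-identical copies can share reads, so which copy the reads came from is uncertain. Mir5126 (0.88, SE 0.19), Mir6387 (1.04, SE 0.23), Mir3081 (0.58, SE 0.14), Mir6416 (1.05, SE 0.30), Mir8101 (0.57, SE 0.20) and Mir203 made up the other higher calls in AThi HSCs. Mir8092 (-0.74, SE 0.23), Mir7045 (-0.68, SE 0.21) and Mir7655 (-0.47, SE 0.16) were the lower ones, and these 3 calls ended with changes centred on strong promoters (adjusted p = 0.124, 0.157 and 0.362), as did the 4 lower calls in ATlo HSCs (Mir8092, Mir7655, Mir6538 and Mir1955, 0.0856 to 0.430).

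Genes that make and use microRNAs had called peaks in both directions. Of 24 such genes 23 had a peak, Xpo5 having none, and of 107 tested peaks 8 were higher and 4 lower in AThi (11.2%) and 7 higher and 7 lower in ATlo HSCs (13.1%), against 10.3% and 9.42% of all peaks. The promoter peak of Lin28a, an RNA-binding protein that blocks let-7 maturation, rose from 31.0 to 96.8 and 81.2 (log2 1.64, SE 0.26, and 1.39, SE 0.26). A weaker Lin28a peak, 1.86 kb upstream, fell in ATlo HSCs (log2 -2.11, SE 0.67, adjusted p = 0.023) and did not pass in AThi HSCs (-0.94, SE 0.58). A peak 15.5 kb upstream of its paralog Lin28b rose from 63.8 to 146 and 121 (1.20, SE 0.18, and 0.93, SE 0.18). The promoter of the Argonaute gene Ago4 rose by 1.02 (SE 0.23) and 0.74 (SE 0.23), while that of Ago1, another Argonaute gene, fell (below). A distal peak of Tnrc6a, a partner of Argonaute in silencing, rose by 0.85 (SE 0.25) and 1.39 (SE 0.24). In Drosha, an intron peak was called higher and another lower in AThi HSCs (log2 0.92, SE 0.32, and -0.82, SE 0.29).

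Promoters of Ddx17, a helicase of the Drosha complex, and Tut7, which adds uridines to let-7 precursors, fell by 0.55 (SE 0.17) and 0.56 (SE 0.15) on the log2 scale in AThi HSCs. In ATlo HSCs they fell by 0.71 (SE 0.16) and 0.51 (SE 0.15). The Ago1 promoter fell by 0.41 (SE 0.14) in AThi and 0.42 (SE 0.14) in ATlo HSCs. Promoters of Tut4, Tarbp2 and Hnrnpa2b1 were called lower in ATlo HSCs alone. These are strong promoters, and the lower calls depend on the scaling. With changes centred on strong promoters, 13 of the 107 tested peaks were called higher and 0 lower in AThi HSCs. In ATlo HSCs 16 were higher and 1 lower. Of all peaks, 13.6% were then higher and 0.87% lower in AThi, and 17.3% and 0.32% in ATlo HSCs.

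Between old AThi and old ATlo HSCs no microRNA peak was called in the authors' DESeq2 comparison: 0 of 2842 passed (0% of all 94410 peaks), and every adjusted p was 0.999998. At an unadjusted p under 0.05, 63 microRNA peaks (2.22%) were found, 21 higher and 42 lower in AThi, against 1.78% of all peaks (0.728% higher and 1.05% lower). With no difference and evenly spread p-values a share of 0.05 would pass, and both percentages lie under it. The reason was not tested. None of the values that follow for this comparison passed the adjusted threshold. The smallest p among peaks higher in AThi belonged to Mir7227 (1.37, SE 0.46, unadjusted p = 0.00292), with levels of 26.5 in AThi and 10.3 in ATlo HSCs. It was followed by an intron 8 peak of Prdm2 assigned to Mir7021 (0.83, SE 0.30), 2 weak peaks near the liver microRNA genes Mir122 (2.57, SE 0.93) and Mir122b (1.47, SE 0.63), and Mir365-2 (0.66, SE 0.27). Lower in AThi, without passing, were peaks assigned to Mir7057 (-0.68, SE 0.24), Mir1945 (-0.68, SE 0.25), Mir8096 (-1.58, SE 0.60), Mir5618 (-0.67, SE 0.26) and Mir1190 (-0.70, SE 0.27). The median SE over microRNA peaks was 0.40 on the log2 scale, which limits the differences between fractions that could be detected.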

How the data were processed

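ATAC-seq libraries of 11 HSC samples (5 young, 3 old AThi, 3 old ATlo) were compared by the authors. Per the labels' protocols, transposition ran for 30 min at 37 °C, isolation took 2 days, fragments over 1000 bp were removed and reads were 150 bases, paired. Per the submitters' processing notes, reads were trimmed (cutadapt, Trim Galore), and BWA, featureCounts, MACS2, ChIPseeker and DESeq2 are named without versions. Those notes list the builds mm39 and GRCm38. The coordinates here were read as mm39, since of 590 hairpin genes matched to RefSeq only 9 had the same start in GRCm38.p6.

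The 3 deposited tables, over the same 94410 peaks, give the authors' mean normalised count (a signal), log2 fold change with SE, Wald statistic (a score), p-value and adjusted p-value. They hold no values per sample, so depth per sample is unknown, a refit was not possible, and the calls are those of the authors instead of a new test. Members were selected by gene symbol, and counts, medians and implied group levels were computed with Python 3.11.15 and pandas 2.3.3. Of these steps the formula for group levels was tested on simulated data, as was the centring. The formula was given log2 changes of the simulated means themselves, so its use with the authors' fitted changes was not tested.

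Named peaks were the 8 smallest p in each direction against young and the 5 between fractions, the nearest and called peaks of the blood-related and let-7 lists, up to 4 called per other list, and up to 6 of the processing genes. Other peaks named for hairpins, host transcripts, Mir124a-1 and further processing genes were chosen after values were seen. Members and lists were chosen with earlier results of these data known. Alternatives were thresholds of 0.01 and 0.1, a minimum mean of 10, adjustment over every peak, centring, distance limits, nearest peaks and host genes left out.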

Additional observations from a re-analysis of the deposited data

How the results depend on the processing

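No paired analysis was possible because the deposited tables hold no values per sample, and leaving out replicates was not run for the same reason. Against young, the 220 higher and 61 lower calls in AThi HSCs became 138 and 30 at a threshold of 0.01, 380 and 31 with changes centred on strong promoters, 41 and 12 within 3 kb of a start, and 56 and 19 for nearest peaks. The 188 higher and 53 lower calls in ATlo HSCs became 123 and 27, 498 and 19, 24 and 12, and 45 and 13 under those settings. As shares of tested peaks, calls at 0.01 were 4.96% higher and 1.08% lower for AThi (all peaks 5.14% and 0.93%). For ATlo they were 4.42% and 0.97% (all peaks 4.42% and 0.71%). Within 3 kb they were 10.3% and 3.02% for AThi and 6.03% and 3.02% for ATlo. Nearest peaks gave 8.05% and 2.73%, and 6.47% and 1.87%. All peaks at any distance gave 7.57% and 2.74%, and 6.88% and 2.54%. At a threshold of 0.1 the lower calls numbered 109 (AThi, 3.92%, all peaks 4.77%) and 88 (ATlo, 3.17%, all peaks 4.48%). Fewer calls within 3 kb and for nearest peaks follow from fewer peaks being counted; for the centring the cause of its effect was not tested. Counts stayed within 1.5 times under a minimum mean of 10, adjustment over every peak, a distance limit of 100 kb and host genes left out. They also did so with microRNA genes of other symbols added (228 and 65 in AThi, 195 and 53 in ATlo HSCs), chosen after seeing the data. Shares were then 7.88% and 2.25% in AThi (all peaks 7.57% and 2.74%) and 6.74% and 1.83% in ATlo HSCs (all peaks 6.88% and 2.54%). For the 107 tested peaks of the processing genes, centring gave 13 higher and 0 lower calls in AThi and 16 higher and 1 lower in ATlo HSCs. Of all peaks, 13.6% were then higher and 0.87% lower in AThi, and 17.3% and 0.32% in ATlo HSCs. Between fractions 0 microRNA peaks were called under each setting run. Centring also brought past the threshold Mir218-2 in AThi HSCs (adjusted p = 0.0119) and Mir146b, Mir222, Mir203 and the intron 9 peak of Mir33 in ATlo HSCs (0.0467, 0.0118, 0.0032 and 0.00144), among others. No direction of a called peak was reversed.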

Other observations

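Peaks assigned to microRNA genes inside the immunoglobulin heavy chain locus (Igh) on chromosome 12 are given here as a group. Its 3 genes, Mir6388, Mir7094-1 and Mir7094-2, had 35 peaks, of which 9 were higher and 0 lower in AThi HSCs (25.7%, median log2 change 0.76) and 11 higher and 0 lower in ATlo HSCs (31.4%, median 0.68) in the authors' deposited tables. Over all peaks 7.57% and 6.88% were called higher. The locus was singled out after its values were seen. Its variable segments and the Mir7094 copies resemble each other, so reads could be split among them.

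Some microRNA genes stood for stretches of a large neighbouring gene. All 5 peaks assigned to Mir346 lay in introns of Grid1, a glutamate receptor gene, 110 to 346 kb from the hairpin, and 4 of them were higher in both old groups (log2 1.82 to 3.16 in AThi, 2.03 to 3.03 in ATlo HSCs). Mir140, with 11 peaks, had 4 higher calls in each comparison (0.69 to 2.09 and 0.53 to 2.07). Mir582, with the most peaks of any microRNA gene at 37, had 1 higher call in each comparison, and 1 lower in ATlo HSCs. Mir1904, with 32 peaks, had 2 lower calls in each and no higher one. These genes, too, were picked after their values were seen. Peaks at large had 7.57% higher and 2.74% lower calls for AThi HSCs, and 6.88% and 2.54% for ATlo HSCs. Differences from these shares were not tested.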
